A study of Mus musculus with 9 samples.

Results

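The 46 genes described here encode proteins that copy DNA, drive the cell cycle or divide the chromosomes, and were taken as a fixed list of replication and mitosis genes, matched by symbol to the Ensembl identifiers of the count data. All 46 were found among the 22262 genes counted in at least 1 library. They were sorted by role into 6 classes: 12 genes of origin licensing and the replication fork, 4 of nucleotide supply, 8 cyclins and cyclin-dependent kinases (CDKs), 8 mitotic kinases, checkpoint and anaphase-promoting complex genes, 11 genes of the chromosome, centromere and spindle, and 3 others (Hmgb2, Stmn1 and Foxm1).

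The study asked how housing shapes the gut of transgenic mice and of their wild type controls. Colon RNA of 9 female wild type C57BL/6N mice aged 12 months was analysed here, 4 from the standard environment (WT_SE, mice 1, 2, 3 and 5) and 5 from the enriched environment (WT_EE, mice 1 to 5). WT_SE mice lived in standard cages in small groups, and WT_EE mice were co-housed from weaning in larger cages with objects to explore and running wheels. No mouse carried the transgene, and transgenic mice were not analysed here. The replicates are separate mice, but which of them shared a cage was not given in the sources used here, so cage and environment cannot be told apart. Each library came from a flushed and rinsed piece of upper colon, and no separation of its layers was described.

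A cell commits to division through D-type cyclins, loads the MCM helicase onto replication origins, copies its genome, and then uses CDK1, the Aurora and Polo-like kinases and a set of motor proteins to separate the chromosomes. Most of the genes in these classes are transcribed in waves, those of replication around the entry into S phase under E2F factors and those of mitosis later, through promoter elements named CHR that the DREAM complex and its relatives bind. In the colon such transcripts come mainly from the dividing cells of the lower crypt, whose descendants leave the cycle as they move towards the lumen, with contributions from any other dividing cell in the piece, such as germinal centre B cells.

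Libraries were primed at the 3′ ends of messenger RNA and carried unique molecular identifiers. A count is thus meant to stand for 1 molecule tagged near its poly(A) end, and not to grow with transcript length. The highest count of any gene was 1177 to 1393 per library. It did not follow the library total (1386 in WT_EE mouse 2 with 295535 counts, 1225 in WT_EE mouse 3 with 444520). Whether counts of abundant genes still follow the number of molecules was not tested. Libraries held 299062 to 383401 counts each in WT_SE and 295535 to 454043 in WT_EE, and 3 counts, taken as the floor for reading a level, were worth 6.61 to 10.2 CPM (counts scaled to a fixed library total). Between mice of 1 environment the common biological coefficient of variation was 15.1%. The library names of WT_SE mice 1 and 3 end in L3 and those of the other 7 mice end in L2. No WT_EE library ends in L3, so only WT_SE mice 2 and 5 can separate the environment from whatever goes with this ending. Levels are given as counts or as CPM normalized by the TMM method (trimmed mean of M values), and differences are log2 fold changes of WT_EE against WT_SE, so that negative values are lower in WT_EE. Errors of mean levels are SDs over mice (n = 4 for WT_SE, n = 5 for WT_EE), and errors of log2 fold changes are standard errors.

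The 46 genes took 10895 counts over the 9 libraries. By mouse they had 1423, 906, 1097 and 1221 counts in WT_SE mice 1, 2, 3 and 5, and 1475, 810, 1208, 1065 and 1690 counts in WT_EE mice 1 to 5. The D-type cyclins Ccnd1 and Ccnd2 held 18.8% of these counts, and the 8 genes with most counts held 46.5%. In 45 of the 46 genes every library had a count, and Gins2 was at 0 in WT_SE mouse 2 and WT_EE mouse 2. A mean of at least 10 counts per library was reached by 32 genes, and the other 14 had between 0 and 19 counts in any mouse, which at this depth leaves their differences loosely set.

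Between the environments, 1 of the 46 genes had an unadjusted p-value under 0.05, Mki67, which was lower in WT_EE. That is 2.17% of the list, beside 7.65% of the 17441 genes tested in the same edgeR quasi-likelihood fit. No member was called after Benjamini-Hochberg adjustment over all genes tested, where 0.0401% of genes were, and the smallest adjusted p-value of a member was 0.379 (edgeR). Among the 32 members with a mean of at least 10 counts, the same gene made up 3.12%, and of the 8493 genes at that level 4.38% were called as lower in WT_EE. In none of the 46 genes did the CPM values of the environments stand apart without overlap, which they did in 2.58% of all genes tested. The log2 fold changes of the members were positive in 21 and negative in 25, with a median of -0.05 and a range from -0.84 (Kif20a) to 0.38 (Aurkb). Over all genes tested the median was 0.01 and 51.1% were positive. With upper quartile normalization the positive share of the members went from 45.7% to 34.8%, and the median over all genes from 0.01 to -0.04. For 35 of the 46 genes the 95% interval of the difference lay within 2-fold in either direction, and 31 of these 35 were among the 32 better counted genes. Because the tissue is bulk, fewer cells of a type and less RNA per cell cannot be told apart in any of these values.

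**Figure D1:**
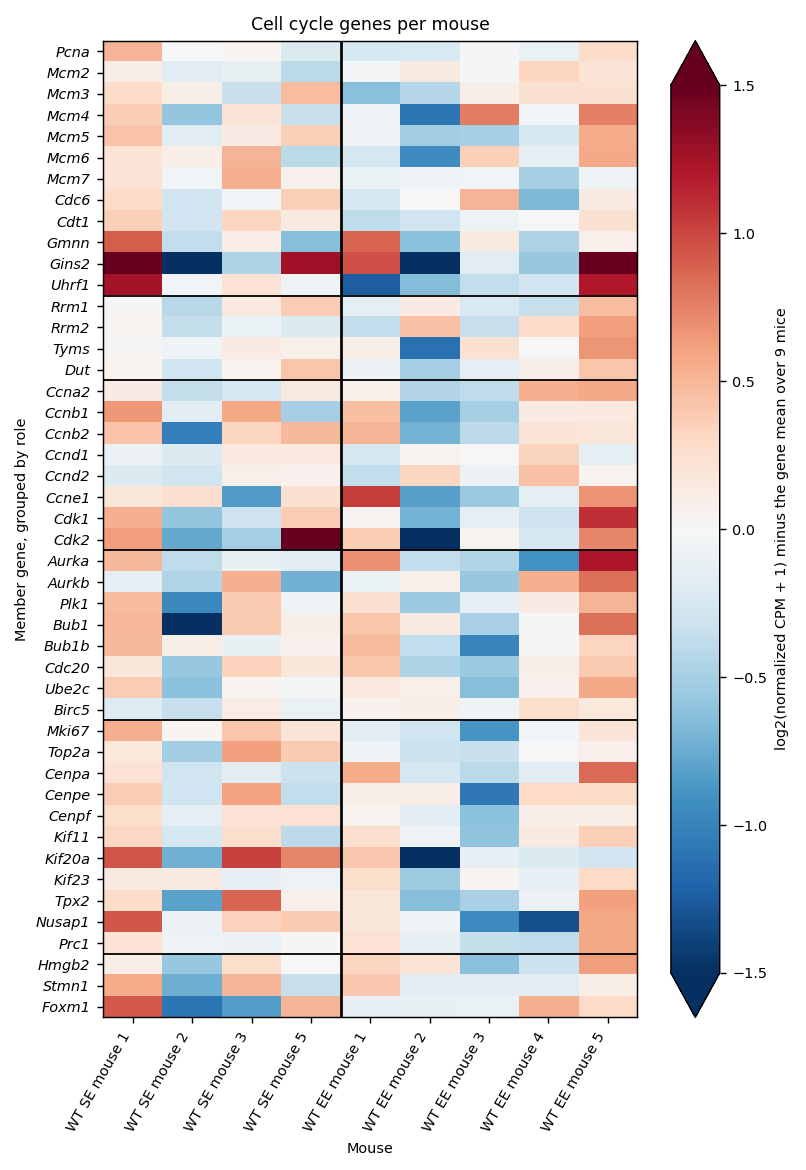
Heat map of log2(normalized CPM + 1) minus the gene's mean over the 9 mice, for the 46 genes (rows, grouped by role and parted by lines) in each mouse (columns, 4 WT_SE then 5 WT_EE). WT_SE mouse 1 and WT_EE mouse 5 are mostly red (higher), while WT_SE mouse 2 and WT_EE mouse 2 are mostly blue (lower), so the mice differ within each environment.

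Mice of the same environment differed in the level of these genes as a whole. Summed over the 46 genes, normalized levels were 3714, 2523, 3710 and 3337 CPM in WT_SE mice 1, 2, 3 and 5, and 3184, 2824, 2640, 3293 and 3910 CPM in WT_EE mice 1 to 5. WT_SE averaged 3321 ± 561 CPM and WT_EE 3170 ± 491 CPM, and the highest mouse, WT_EE 5, had 1.55 times the level of the lowest, WT_SE 2. Without Ccnd1 and Ccnd2 the same ratio was 1.65. Of the 32 better counted genes, WT_EE mouse 5 was the highest of the 9 mice in 14 and the lowest in 0, and its median rank from the top was 2. WT_SE mouse 1 was the highest in 7 and the lowest in 0. At the other end, WT_EE mouse 2 was the lowest in 9, WT_SE mouse 2 in 8 and WT_EE mouse 3 in 7, with median ranks of 8, 7.5 and 7. Over all 8493 genes at this level, WT_EE mouse 5 was highest in 9.62% and WT_EE mouse 2 was lowest in 17.3%, and the median rank was 5 in every mouse. In 28 of the 32 genes (87.5%) the coefficient of variation within environments was above that of counting alone, as it was in 67.8% of the genes at this level, and its median ratio to counting was 1.38 for the members and 1.17 for all. From the lowest to the highest mouse, the 32 genes spanned from 1.49-fold (Ccnd1) to 4.92-fold (Nusap1), with a median of 2.18-fold, and 20 of them spanned 2-fold or more.

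Lists of cell type markers were summed in each mouse to set beside these levels. Igkc, a plasma cell marker, Acta2 of smooth muscle and Epcam of the epithelium averaged 153, 156 and 143 counts per library, beside 132 for Ccnd2. Whether counts of abundant genes follow the number of molecules was not tested. A narrow span of a marker sum is thus not read as an even cell content. Markers of the crypt base and progenitors, 9 genes, summed to between 877 and 1019 CPM in WT_SE and between 833 and 1021 CPM in WT_EE. The sum spanned 1.23-fold over mice. Its highest mouse was WT_EE 2 and its lowest WT_EE 3, both among the 3 mice lowest for the summed cell cycle genes. The sum mostly reflects Slc12a2 (means of 331 CPM in WT_SE and 286 CPM in WT_EE) and Sox9 (300 and 308 CPM). The less abundant Lgr5 (20.4 and 35.1 CPM) and Ascl2 (28.6 and 27.1 CPM) spanned 4.12-fold and 2.87-fold over mice. Lgr5, with 4 to 20 counts, was higher in WT_EE (edgeR unadjusted p = 0.0429, adjusted p = 0.629, exact permutation p = 0.111). Myc, with 0 to 15 counts, was also called as higher (edgeR unadjusted p = 0.0404, adjusted p = 0.62). The other crypt markers were not called, with Ascl2, Axin2 and Slc12a2 lower in WT_EE and Smoc2, Sox9, Rnf43 and Lrig1 higher. Over all genes tested 7.65% were called. Epithelial markers summed to 3264 to 3953 CPM in WT_SE and 3412 to 4475 CPM in WT_EE. They were lowest in WT_SE mouse 2 (3264 CPM) and WT_EE mouse 3 (3412 CPM), the same 2 mice that were lowest for the cell cycle genes, and highest in WT_EE mouse 4 (4475 CPM). Absorptive colonocyte markers reached 2097 to 2383 and 2030 to 2736 CPM, and goblet cell markers 2102 to 2905 and 2262 to 3529 CPM, in WT_SE and WT_EE respectively. The lowest mouse was WT_EE 3 for the absorptive and WT_SE 2 for the goblet cell markers.

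Of the 14 markers of follicles and germinal centre B cells, another dividing population, 13 had a count, Cd79a was at 0 in every mouse, and Mef2b, which marks germinal centre B cells, had at most 1 count in any mouse. Their sum was 123, 159, 27.1 and 43.7 CPM in WT_SE mice 1, 2, 3 and 5, and 56.1, 20.9, 28.4, 6.19 and 41.7 CPM in WT_EE mice 1 to 5. The mouse with most of them, WT_SE 2, was the lowest for the summed cell cycle genes. T cell markers summed to 9.28 to 45.9 CPM and plasma cell markers to 1064 to 1392 CPM over all mice. Smooth muscle markers were highest in WT_EE mice 2 and 4, at 3542 and 3476 CPM, against 1912 to 2465 CPM in the other 7 mice, and endothelial markers lay between 108 and 217 CPM. Fat markers ranged from 61.3 to 840 CPM, with WT_SE mouse 1 the highest. Markers of the position of the piece along the gut summed to 209 to 514 CPM in WT_SE and 160 to 404 CPM in WT_EE, a sum that hides opposite courses of its genes. Slc10a2, a bile acid transporter, was at 67.9, 287, 372 and 43.7 CPM in WT_SE and 231, 10.5, 256, 12.4 and 23.1 CPM in WT_EE, a span of 35.6-fold that parted the mice within both environments. Hoxb13, a posterior Hox gene, was at 10.4, 0, 0 and 153 CPM in WT_SE and 0, 157, 45.9, 74.2 and 46.3 CPM in WT_EE, so that the 3 mice without a count of it were all high in Slc10a2. The Hox genes of the list did not move together. Hoxd10 was at 5.22, 61.3, 27.1 and 0 CPM in WT_SE and 10.8, 0, 26.2, 0 and 4.63 CPM in WT_EE. Hoxd11 was highest in WT_SE mice 2 and 3 (78.0 and 54.1 CPM), which were also high in Slc10a2. Hoxa13 lay between 30.6 and 109 CPM. The part of any of these in the levels of the cell cycle genes was not tested.

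The library ending moved with the members as well. Among WT_SE mice, both L3 libraries lay above both L2 libraries in 16 of the 32 better counted members and below them in 0. Over all genes at this level the shares were 17.6% above and 17.0% below. The members are not independent of each other, since their sums already parted these mice (3714 and 3710 CPM in WT_SE mice 1 and 3, 2523 and 3337 CPM in mice 2 and 5). The library ending and differences between single mice cannot be told apart here. With the 7 L2 libraries alone, 32 of the 46 members had a positive log2 fold change, beside 52.6% of all genes, and the median of the members was 0.20. In 11 members the sign differed from that with all libraries. Mki67 was then not called (log2 fold change -0.31, standard error 0.22, edgeR unadjusted p = 0.178), and Stmn1 was called as higher in WT_EE. The number of members called stayed at 1, beside 3.98% of all genes. Single mice moved the list as well. Without WT_SE mouse 2, and likewise without WT_EE mouse 5, 12 members had a positive log2 fold change and 4 were called, all lower in WT_EE, beside 9.14% and 7.18% of all genes. These were Kif20a, Mki67, Nusap1 and Top2a without WT_SE mouse 2, and Mki67, Nusap1, Top2a and Uhrf1 without WT_EE mouse 5. The balance of signs over the list thus depended on which mice were included.

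**Figure D2:**
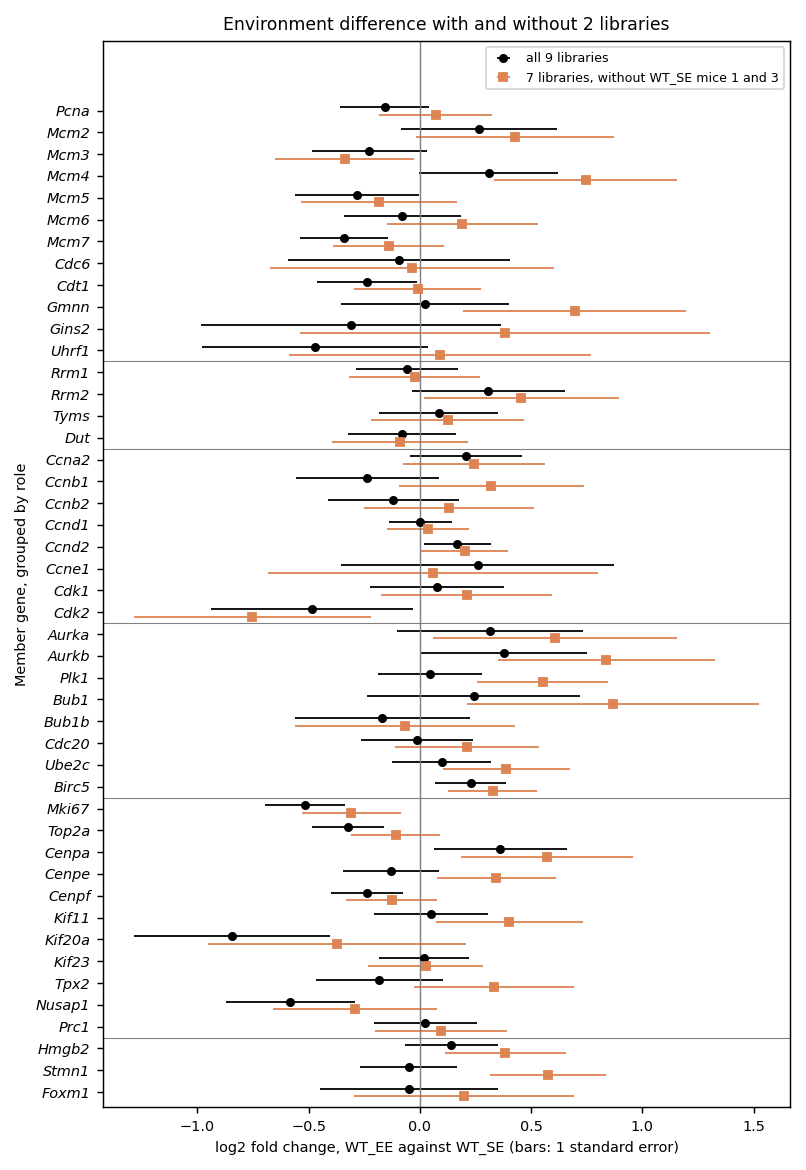
Log2 fold change of WT_EE against WT_SE (horizontal axis, bars of 1 standard error) for each of the 46 genes (vertical axis, grouped by role), with all 9 libraries (black circles, 21 positive) and with the 7 libraries without WT_SE mice 1 and 3 (orange squares, 32 positive). The orange squares of Plk1, Cenpe and Stmn1 lie well to the right of the black circles, and those of Mcm3 and Cdk2 lie to the left.

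The promoters of the list were read because the replication and mitosis genes are known to respond to different elements. Promoter windows from RefSeq on GRCm38.p6, 250 bases before to 50 after the transcription start, were at hand for 35 of the 46 genes (38 windows). The letters of 3 elements were searched on either strand: an E2F site (TTTCGCGC, TTTGGCGC or TTCCCGCC), the cell cycle homology region CHR (TTTGAA) and the CCAAT box (CCAAT). The E2F letters were in 7 of 13 replication and nucleotide genes (53.8%), in 0 of 16 mitosis genes and in 1 of 5 cyclin and CDK genes (Cdk1), and in 3.39% of the 27025 genes with a window. The CHR letters were in 1 of the 13 replication genes (Mcm2, 7.69%), in 12 of the 16 mitosis genes (75.0%) and in 20.2% of all. CCAAT was in 69.2% of the replication genes, 87.5% of the mitosis genes and 41.1% of all. All 16 members with CHR letters also held CCAAT in the same window, as did 39.4% of the 5466 genes with CHR letters. The E2F and CCAAT letters can share bases at their ends. A match is a run of letters, and whether a factor binds there was not measured.

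The 3 replication genes with the highest mean counts whose window held E2F letters are shown to let the element be seen in place. They are printed in the direction of the gene with the E2F letters in capitals. Mcm7 lies on the minus strand at chr5:138171849-138171878, Rrm1 on the plus strand at chr7:102441617-102441646 and Cdt1 on the plus strand at chr8:122568036-122568064 (GRCm38.p6). In Mcm7 and Cdt1 the letters lie just after the transcription start, and in Rrm1 before it.
Mcm7: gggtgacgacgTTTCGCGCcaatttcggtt
Rrm1: aggagaactcgTTCCCGCCaggtccgcttt
Cdt1: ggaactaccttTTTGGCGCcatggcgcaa

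The 3 mitosis genes with the highest mean counts whose window held CHR letters are shown in the same way, with CHR letters (TTTGAA or its reverse complement TTCAAA) and CCAAT letters (CCAAT or its reverse complement ATTGG) in capitals. Top2a lies at chr11:99024196-99024427, Cenpf at chr1:189688068-189688229 and Mki67 at chr7:135716461-135716578, all on the minus strand of GRCm38.p6. The Top2a stretch holds 2 CHR and 6 CCAAT runs, that of Cenpf 1 and 2, and that of Mki67 2 and 3.
Top2a: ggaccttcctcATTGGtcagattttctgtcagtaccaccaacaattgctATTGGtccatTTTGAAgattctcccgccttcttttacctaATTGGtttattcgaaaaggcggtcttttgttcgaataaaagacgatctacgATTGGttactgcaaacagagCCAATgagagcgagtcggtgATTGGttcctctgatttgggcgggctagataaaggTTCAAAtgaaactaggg
Cenpf: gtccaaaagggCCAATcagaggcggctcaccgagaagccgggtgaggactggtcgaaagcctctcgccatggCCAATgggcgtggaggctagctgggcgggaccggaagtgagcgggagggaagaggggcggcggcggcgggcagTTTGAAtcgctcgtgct
Mki67: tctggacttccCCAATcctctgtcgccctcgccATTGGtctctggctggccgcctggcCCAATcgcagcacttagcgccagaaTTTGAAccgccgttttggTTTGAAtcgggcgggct

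In the counts that follow, the first 4 numbers are WT_SE mice 1, 2, 3 and 5, and the next 5 are WT_EE mice 1 to 5. For origin licensing and the fork, the 12 genes summed to 660, 446, 565 and 489 CPM in WT_SE and 436, 370, 516, 442 and 632 CPM in WT_EE. WT_SE averaged 540 ± 94.2 CPM and WT_EE 479 ± 99.8 CPM, and the values overlapped, with WT_SE mouse 1 the highest and WT_EE mouse 2 the lowest. Of the 12 log2 fold changes 3 were positive, the median was -0.19, and none passed the unadjusted threshold. Pcna, the sliding clamp of the replication polymerases, had 47, 31, 26 and 27 counts in WT_SE and 33, 21, 39, 26 and 45 in WT_EE. It was highest in WT_SE mouse 1, and the other 8 mice lay between 71.2 and 104 CPM. Among the subunits of the MCM2-7 helicase, Mcm7 was the best counted, with 37, 29, 36 and 32 counts in WT_SE and 36, 23, 37, 19 and 34 in WT_EE. After normalization this was 96.6 ± 17.9 CPM over the 4 WT_SE mice and 75.2 ± 9.3 CPM over the 5 WT_EE mice, with a log2 fold change of -0.34 ± 0.20 (edgeR unadjusted p = 0.0922, exact permutation p = 0.0159, n = 4 and 5). Its lowest WT_SE mouse (80.8 CPM) and its highest WT_EE mouse (80.9 CPM) were almost level, so the environments overlapped by a narrow margin. With the L2 libraries alone its log2 fold change was -0.14 ± 0.25 (edgeR unadjusted p = 0.578). Mcm7 (chr5:138164583-138172422, minus strand) overlaps Ap4m1 and Cops6 on the other strand, and whether the counting used strand was not given in the sources used here.

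The other MCM subunits had fewer counts than Mcm7. Mcm6 had 24, 21, 23 and 15 counts in WT_SE and 21, 8, 32, 16 and 35 in WT_EE, and Mcm4 had 19, 9, 13 and 11 counts in WT_SE and 17, 5, 30, 12 and 28 in WT_EE. In both, WT_EE mice 3 and 5 were above the other WT_EE mice and WT_EE mouse 2 was the lowest of all 9. Mcm4 spanned 3.76-fold over mice, and its log2 fold change of 0.31 ± 0.31 was positive where that of Mcm7 was negative. Mcm3 had 22, 18, 11 and 24 counts in WT_SE and 14, 10, 23, 18 and 24 in WT_EE, with WT_SE mouse 5 highest after normalization. Mcm5 had 21, 13, 13 and 19 counts in WT_SE and 18, 8, 13, 11 and 26 in WT_EE, with WT_EE mouse 5 highest and WT_EE mouse 2 lowest. Cdt1, which brings the helicase to origins, had 32, 19, 24 and 26 counts in WT_SE and 23, 15, 28, 21 and 33 in WT_EE. WT_SE mouse 1 was the highest and WT_EE mouse 1 the lowest. The remaining 5 genes of the class had a mean under 10 counts. Mcm2 ranged from 6 to 11 counts, Cdc6, a helicase loader, from 2 to 7, and Gmnn, the inhibitor of Cdt1, from 4 to 19. Gins2, a subunit of the active helicase, had 0 to 10 counts, and Uhrf1, which recruits maintenance DNA methylation to newly copied DNA, had 2 to 12. Both were highest in WT_SE mouse 1, and WT_EE mouse 5 came next for each of them.

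**Figure D3:**
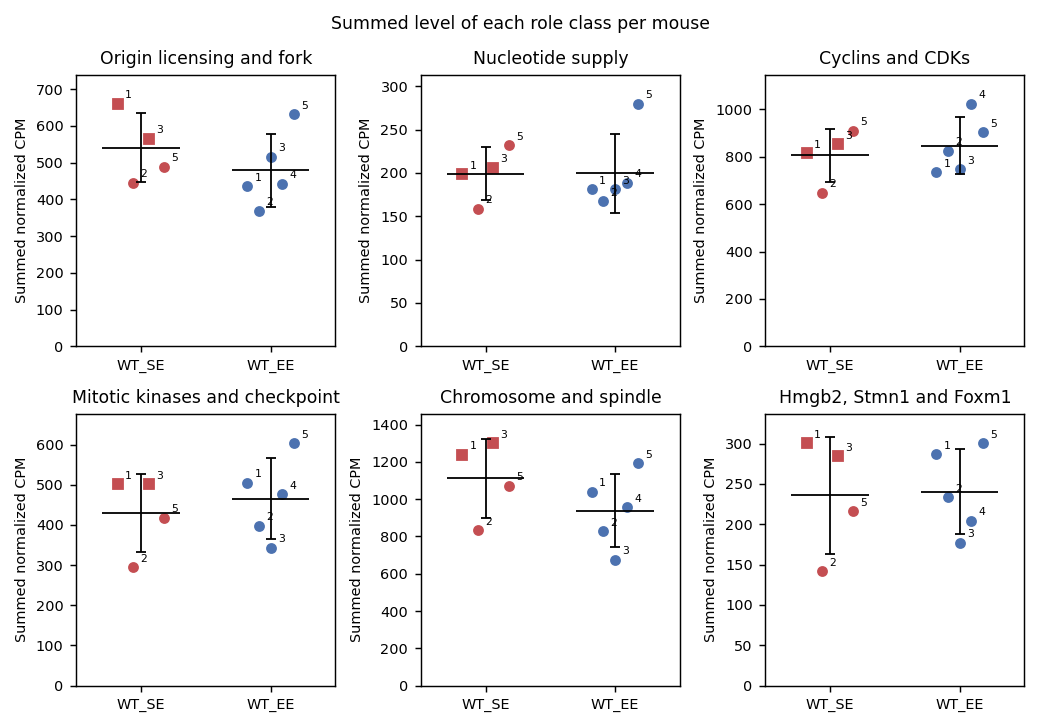
Summed normalized CPM (vertical axis) of each of the 6 role classes per mouse, for WT_SE (red, n = 4, squares are the L3 libraries of mice 1 and 3) and WT_EE (blue, n = 5), with the mouse number beside each point, the mean as a line and the SD as bars. The environments overlap in every panel, and WT_EE mouse 5 is the highest WT_EE mouse in all classes but cyclins and CDKs.

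The genes of nucleotide supply showed similar means and a single mouse that stood out. Their sums were 198, 159, 206 and 232 CPM in WT_SE and 181, 167, 181, 189 and 280 CPM in WT_EE, or 199 ± 30.5 CPM on average against 200 ± 45.5 CPM. WT_EE mouse 5 was above every other mouse, and the rest of WT_EE lay within the range of WT_SE. Rrm1, the large subunit of ribonucleotide reductase, had 26, 18, 22 and 32 counts in WT_SE and 28, 21, 26, 17 and 40 in WT_EE. Tyms, which makes thymidylate, had 18, 16, 15 and 18 counts in WT_SE and 23, 6, 25, 15 and 32 in WT_EE. Dut, which removes dUTP, had 22, 16, 17 and 27 counts in WT_SE and 24, 11, 23, 19 and 32 in WT_EE. In each of these 3 genes WT_EE mouse 5 was the highest, and the lowest was WT_EE mouse 2 for Tyms and Dut and WT_SE mouse 2 for Rrm1. The small subunit gene Rrm2 had 7 to 17 counts. Of the 4 log2 fold changes 2 were positive, with a median of 0.01.

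Among cyclins and CDKs, the D-type cyclins Ccnd1 and Ccnd2 had the most counts of the whole list, and Ccnd1 had the narrowest span over mice of the 32 better counted genes. The class summed to 814, 649, 852 and 910 CPM in WT_SE and 734, 826, 748, 1024 and 902 CPM in WT_EE, or 806 ± 112 CPM on average against 847 ± 120 CPM. Ccnd2 had 118, 104, 111 and 136 counts in WT_SE and 127, 128, 153, 156 and 159 in WT_EE, and Ccnd1 had 92, 79, 83 and 103 counts in WT_SE and 100, 75, 117, 104 and 100 in WT_EE. For Ccnd1 the log2 fold change was 0.00 ± 0.14 with a 95% interval from -0.29 to 0.29, and for Ccnd2 it was 0.17 ± 0.15 with an interval from -0.13 to 0.47. Both were highest in WT_EE mouse 4 and lowest in WT_EE mouse 1. Ccnd2 was at 482 CPM in WT_EE mouse 4 and next at 446 CPM in WT_EE mouse 2, and both mice were also the highest in smooth muscle markers. WT_EE mouse 2 was the lowest in 9 of the 32 better counted genes, while its Ccnd1, at 261 CPM, lay within the range of the other mice. Which cells the counts of the D-type cyclins come from was not tested. Of the cyclins of the later phases, Ccna2, which acts in S phase and at the entry into mitosis, had 24, 16, 14 and 23 counts in WT_SE and 28, 12, 20, 27 and 37 in WT_EE. Ccnb2 had 21, 7, 15 and 21 counts in WT_SE and 27, 7, 14, 15 and 20 in WT_EE, and Ccnb1 had 19, 10, 14 and 8 counts in WT_SE and 20, 5, 10, 11 and 15 in WT_EE. These mitotic partners of CDK1 were low in WT_EE mice 2 and 3 and, for Ccnb2, lowest in WT_SE mouse 2.

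Cdk1, the kinase that drives mitosis, varied 3.57-fold over mice. It had 26, 11, 11 and 22 counts in WT_SE and 22, 8, 19, 12 and 43 in WT_EE. The means were 49 ± 17.9 CPM over the 4 WT_SE mice and 50.7 ± 28.2 CPM over the 5 WT_EE mice, and WT_EE mouse 5, at 99.5 CPM, was far above the other WT_EE mice, which lay between 27.9 and 47.5 CPM. Ccne1, the cyclin of the entry into S phase, had 1 to 7 counts, and its partner Cdk2 had 1 to 17. Of the 8 log2 fold changes in the class 5 were positive, with a median of 0.04, and none passed the unadjusted threshold.

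The mitotic kinases, checkpoint and anaphase-promoting complex genes had the most positive median of the 6 classes, 0.16, with 6 of 8 log2 fold changes above 0 and none past the unadjusted threshold. They summed to 501, 295, 501 and 418 CPM in WT_SE and 505, 397, 343, 476 and 604 CPM in WT_EE. WT_SE averaged 429 ± 97.2 CPM and WT_EE 465 ± 101 CPM, with WT_SE mouse 2 the lowest and WT_EE mouse 5 the highest. Birc5, or survivin, a subunit of the chromosomal passenger complex, had 45, 38, 43 and 46 counts in WT_SE and 65, 41, 59, 52 and 65 in WT_EE. Its levels were 124 ± 16.7 CPM over the 4 WT_SE mice and 145 ± 11.8 CPM over the 5 WT_EE mice, with a log2 fold change of 0.23 ± 0.16 (edgeR unadjusted p = 0.161). It spanned 1.52-fold over mice and was the steadiest gene of the class. Plk1, the Polo-like kinase, had 44, 15, 32 and 29 counts in WT_SE and 45, 16, 34, 29 and 51 in WT_EE. Ube2c, the ubiquitin-conjugating enzyme of the anaphase-promoting complex, had 43, 20, 26 and 31 counts in WT_SE and 44, 26, 25, 29 and 55 in WT_EE, and Cdc20, an activator of the same complex, had 25, 14, 22 and 24 counts in WT_SE and 36, 12, 18, 20 and 33 in WT_EE. WT_SE mouse 2 was the lowest in Plk1 and Cdc20 and next to the lowest in Ube2c, where WT_EE mouse 3 was lower. Aurka and Aurkb, the Aurora kinases, had 3 to 19 and 5 to 18 counts, and the checkpoint kinases Bub1 and Bub1b had 1 to 10 and 4 to 12.

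The genes of the chromosome, centromere and spindle held Mki67, the gene of the proliferation antigen Ki-67 and the member called with all 9 libraries. The class summed to 1240, 833, 1302 and 1072 CPM in WT_SE and 1041, 830, 675, 959 and 1192 CPM in WT_EE, or 1111 ± 210 CPM on average against 939 ± 198 CPM. WT_EE mouse 3 was the lowest of all mice, and 7 of the 11 log2 fold changes were negative, with a median of -0.18. Mki67 (chr7:135689784-135716361, minus strand) had 75, 49, 53 and 56 counts in WT_SE and 55, 31, 33, 42 and 66 in WT_EE. In normalized CPM these were 196, 136, 179 and 153 in WT_SE and 119, 108, 72.1, 130 and 153 in WT_EE. WT_EE mouse 5 lay above WT_SE mouse 2 and level with WT_SE mouse 5, and the other 4 WT_EE mice lay below every WT_SE mouse. The means were 166 ± 26.5 CPM over the 4 WT_SE mice and 116 ± 29.7 CPM over the 5 WT_EE mice, 30.1% lower in WT_EE, with a log2 fold change of -0.52 ± 0.18 and a 95% interval from -0.88 to -0.16. The unadjusted p-value was 0.00622 and the adjusted p-value 0.379 by edgeR and Benjamini-Hochberg, and the exact permutation p was 0.0317 (2-sided, n = 4 and 5). Of the 32 members tested by permutation, Mki67 and Mcm7 were the 2 with an exact p under 0.05, which is 6.25% beside 8.41% of the 8493 genes at this level, and these p-values were not corrected for the number of genes. The call of Mki67 was lost without the L3 libraries and held with each single mouse left out, where the log2 fold change ran from -0.64 to -0.37. Gm45240 lies within Mki67 on the other strand.

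Top2a, the topoisomerase that untangles sister chromatids, was the most counted gene of the class, with 99, 58, 105 and 111 counts in WT_SE and 103, 53, 84, 75 and 106 in WT_EE. In normalized CPM it was 269.6 ± 82.2 CPM over the 4 WT_SE mice and 214 ± 28.1 CPM over the 5 WT_EE mice, with a log2 fold change of -0.32 ± 0.16 (edgeR unadjusted p = 0.0551, exact permutation p = 0.206). WT_SE mouse 2 was the lowest of all 9 mice and WT_SE mouse 3 the highest, so the WT_SE values enclosed all of those in WT_EE. Nusap1, which bundles microtubules around the chromosomes, had 35, 16, 18 and 23 counts in WT_SE and 25, 13, 11, 6 and 31 in WT_EE. Its levels were 64.9 ± 19.4 CPM over the 4 WT_SE mice and 42.7 ± 21.8 CPM over the 5 WT_EE mice, with a log2 fold change of -0.58 ± 0.29 (edgeR unadjusted p = 0.0516, exact permutation p = 0.183). WT_EE mice 3 and 4 were the lowest and WT_SE mouse 1 the highest, and WT_EE mouse 5 lay above 3 of the 4 WT_SE mice. Kif20a, a kinesin of cytokinesis, had the most negative log2 fold change of the list, -0.84 ± 0.44, with 3 to 11 counts over WT_SE mice and 1 to 9 over WT_EE mice (edgeR unadjusted p = 0.0624). With the L2 libraries alone the log2 fold changes were -0.11 for Top2a, -0.29 for Nusap1 and -0.37 for Kif20a.

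**Figure D4:**
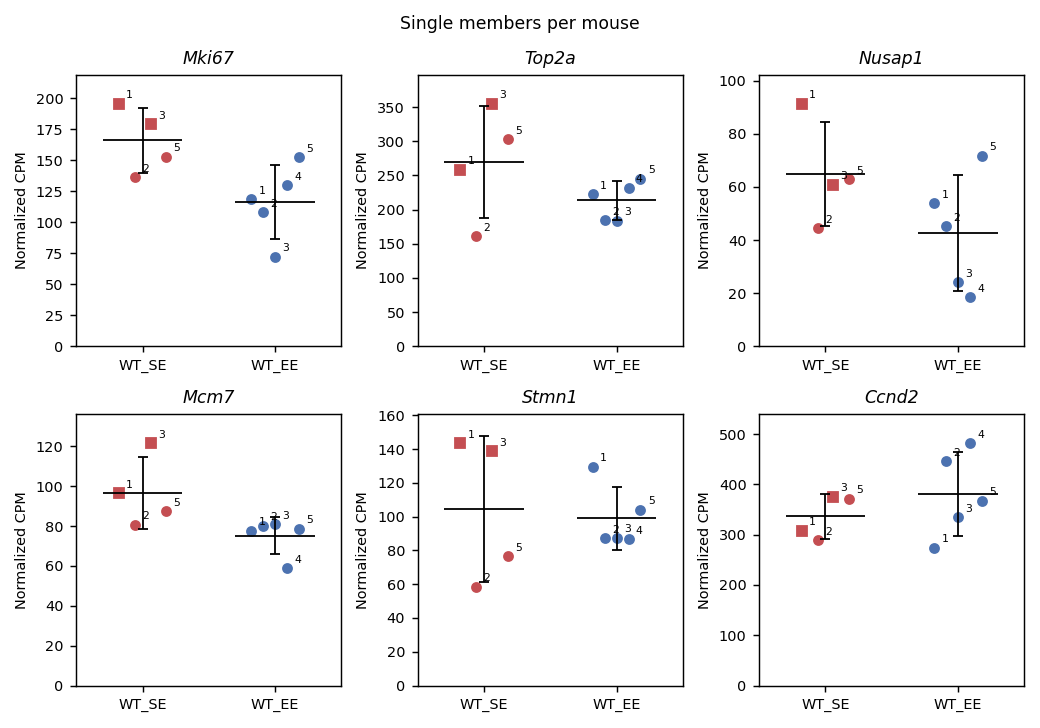
Normalized CPM (vertical axis) of Mki67, Top2a, Nusap1, Mcm7, Stmn1 and Ccnd2 per mouse in WT_SE (red, n = 4, squares are the L3 libraries) and WT_EE (blue, n = 5), with mouse numbers, the mean as a line and the SD as bars. In Mki67 and Mcm7 the highest WT_EE mouse reaches only the lower WT_SE mice, and both L3 libraries are above both other WT_SE libraries in Mki67, Mcm7 and Stmn1.

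At the centromere, Cenpf had 68, 48, 51 and 63 counts in WT_SE and 71, 38, 44, 51 and 68 in WT_EE, and Cenpe, a kinesin that holds chromosomes to microtubules, had 60, 35, 54 and 34 counts in WT_SE and 59, 37, 26, 48 and 63 in WT_EE. WT_EE mouse 3 was the lowest of all mice in both. Cenpa, the histone variant that marks the centromere, had 17, 11, 10 and 11 counts in WT_SE and 26, 9, 13, 11 and 30 in WT_EE, with WT_EE mice 5 and 1 the highest and the other 7 mice within 28.4 to 44.4 CPM. Among spindle genes, Kif23, a motor of the central spindle, had 34, 32, 22 and 28 counts in WT_SE and 45, 16, 38, 24 and 43 in WT_EE. Prc1, which bundles the microtubules there, had 29, 22, 18 and 24 counts in WT_SE and 35, 17, 23, 16 and 42 in WT_EE. Both had log2 fold changes of 0.02 and were highest in WT_EE mouse 5. Kif11, the motor that pushes the spindle poles apart, had 24, 15, 18 and 14 counts in WT_SE and 28, 14, 15, 18 and 28 in WT_EE, and Tpx2, which activates Aurora A, had 23, 10, 27 and 19 counts in WT_SE and 26, 9, 16, 15 and 33 in WT_EE. Kif11 was lowest in WT_EE mouse 3 and Tpx2 in WT_SE mouse 2, and neither had a log2 fold change larger than its standard error.

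Hmgb2, Stmn1 and Foxm1 summed to 300.2, 142, 284 and 216 CPM in WT_SE and 287, 234, 177, 204 and 301 CPM in WT_EE. Hmgb2, a chromatin protein that is abundant in dividing cells, had 46, 27, 40 and 41 counts in WT_SE and 65, 37, 33, 29 and 75 in WT_EE, with WT_EE mouse 5 the highest and WT_EE mouse 3 the lowest. Stmn1, a microtubule-destabilizing protein, had 55, 21, 41 and 28 counts in WT_SE and 60, 25, 40, 28 and 45 in WT_EE. In normalized CPM it was 144, 58.5, 139 and 76.5 in WT_SE and 130, 87.2, 87.4, 86.6 and 104 in WT_EE. The L3 libraries of WT_SE mice 1 and 3 were the highest of all 9 and the L2 libraries of WT_SE mice 2 and 5 the lowest. The log2 fold change was -0.05 ± 0.22 with all libraries and 0.58 (standard error 0.26, edgeR unadjusted p = 0.0338) with the L2 libraries alone. Foxm1, the transcription factor of the mitotic genes, had 3 to 14 counts.

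A wider list of 148 other cell cycle genes was read in the same fit, and 146 of them were tested. Their log2 fold changes were positive in 65 and negative in 81, with a median of -0.03. At the unadjusted threshold 4 were higher and 7 lower in WT_EE, 7.53% of the list beside 7.65% of all genes tested. None passed after adjustment, and the smallest adjusted p-value was 0.22 (edgeR). Of the 11 called, 10 had a mean of at least 10 counts. The other, Brca2, a repair gene with a mean under 10 counts, had a log2 fold change of -1.02.

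The 4 that were higher in WT_EE were Ccnd3, Ccng1, Nek2 and E2f2. Ccnd3, the third D-type cyclin, had 34, 23, 23 and 33 counts in WT_SE and 47, 31, 52, 44 and 58 in WT_EE, and its environments did not overlap after normalization (80.2 ± 12.1 CPM in WT_SE and 119 ± 15.6 CPM in WT_EE, log2 fold change 0.56 ± 0.19, edgeR unadjusted p = 0.00525). Ccng1, a cyclin induced by p53, had 43, 38, 33 and 34 counts in WT_SE and 64, 43, 59, 44 and 63 in WT_EE, again without overlap (106 ± 8.96 CPM in WT_SE and 139.8 ± 8.24 CPM in WT_EE, log2 fold change 0.40 ± 0.16, edgeR unadjusted p = 0.0188). Nek2, a kinase of centrosome separation, had the largest difference of these (23.7 ± 8.83 CPM in WT_SE and 48.8 ± 14.9 CPM in WT_EE, log2 fold change 1.02 ± 0.32, edgeR unadjusted p = 0.00254). E2f2, an activator of the E2F family, was closest to the threshold (27.4 ± 9.61 CPM in WT_SE and 45.5 ± 17.4 CPM in WT_EE, log2 fold change 0.67 ± 0.32, edgeR unadjusted p = 0.0465). All 4 were also called with the L2 libraries alone, where 3.98% of all genes were. With the DESeq2 test, which called 3.69% of all genes, Ccnd3 and Nek2 were called and Ccng1 and E2f2 were not.

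Those lower in WT_EE were Rfc1, Pola1, Ckap5, Knl1, Sgo1 and Wee1, beside Brca2. Rfc1, the large subunit of the clamp loader that places Pcna on DNA, had 85, 58, 59 and 62 counts in WT_SE and 61, 28, 60, 39 and 68 in WT_EE, and its environments did not overlap after normalization (188 ± 27.8 CPM in WT_SE and 128 ± 21.6 CPM in WT_EE, log2 fold change -0.54 ± 0.16, edgeR unadjusted p = 0.00152). Pola1, the catalytic subunit of the polymerase that starts new strands, had a log2 fold change of -0.77 ± 0.25 (70.9 ± 12.7 CPM in WT_SE and 41.8 ± 12.3 CPM in WT_EE, edgeR unadjusted p = 0.00435). The microtubule polymerase gene Ckap5 had a log2 fold change of -0.83 ± 0.25, and those of Knl1, a kinetochore scaffold, and Sgo1, which guards the cohesion of sister centromeres, were -0.80 ± 0.32 and -0.71 ± 0.31. Wee1, the kinase that holds Cdk1 inactive, had -0.59 ± 0.24. With the L2 libraries alone none of these 7 lower genes was called, and their log2 fold changes were -0.52 ± 0.29 for Wee1, -0.65 ± 0.39 for Sgo1, -0.57 ± 0.32 for Pola1, -0.57 ± 0.39 for Knl1, -0.34 ± 0.19 for Rfc1, -0.36 ± 0.30 for Ckap5 and -0.32 ± 0.66 for Brca2. Those of Rfc1, Ckap5 and Brca2 were thus smaller by more than 1.5 times than with all libraries, and those of Wee1, Sgo1, Pola1 and Knl1 by less. With the DESeq2 test on all libraries, Rfc1, Pola1, Ckap5, Knl1 and Wee1 were called and Sgo1 and Brca2 were not.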

How the data were processed

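RNA of upper colon pieces from 4 WT_SE and 5 WT_EE mice was analysed. The authors made stranded 3′ libraries with the QuantSeq kit (FWD) and deposited raw molecule counts per Ensembl gene on GRCm38.p6, and genes not listed for a mouse were taken as 0 counts. The submitters' processing notes name fastp 0.20.0, STAR 2.7.0f, featureCounts 1.6.0 and UMI-tools, and the use of strand in counting was not given in the sources used here. Groups came from the sample labels. Symbols came from an Ensembl gene table (22248 of 22262 genes) and positions from GENCODE annotation.

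Genes reaching 4 CPM in 1 or more libraries (17441) were tested with edgeR 4.0.16 (R 4.3.3): TMM normalization, quasi-likelihood F test, environment as the only term, Benjamini-Hochberg adjustment over all genes. Normalized CPM of single genes were compared by exact 2-sided permutation of the difference of means over all 126 ways to part the mice (scipy 1.17.1), for which the smallest possible p is 0.00794. Class sums were described without a test. The coefficient of variation of counting covers counting error only. The p-values weigh a difference between the environments against the spread between these mice. They take the mice as independent, although mice were housed together and their cages were not given. The fit was tested on simulated counts. No pair of libraries was a repeat of the other (chi-square per degree of freedom 1.17 to 2.30 within environments).

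The members and all lists were chosen with earlier results of these data known. Members with a mean of at least 10 counts, or an unadjusted p under 0.05, are given in every mouse and the others by range. Of the 148 other cell cycle genes, 147 were matched (1 symbol was misspelt in the list), and those with an unadjusted p under 0.05 and a mean of at least 10 counts are named. Brca2, the remaining called gene, and the genes set beside others for overlapping annotation were named after values were seen. Alternatives were other normalizations and filters, DESeq2 1.42.0, limma-voom (limma 3.58.1), a block by mouse number, the library ending, Slc10a2 as a covariate for position along the gut, each mouse left out, and, added after seeing the data, edgeR's newer quasi-likelihood form.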

Additional observations from a re-analysis of the deposited data

Results flagged for a closer look

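In 8 of 108 groups of member or class values, the extreme mouse stood apart from the others of its environment by more than Dixon's 95% limit, where chance alone gives about 1 in 20. WT_EE mouse 5 was high in 3 of them. Its Cdk1 was 99.5 CPM against 27.9 to 47.5 CPM in the other WT_EE mice, its Uhrf1 was 27.8 CPM against 4.32 to 9.28 CPM, and its summed nucleotide supply genes were 280.0 CPM against 167 to 189 CPM. Uhrf1 was also high in WT_SE mouse 1, at 28.7 CPM against 10.9 to 13.5 CPM. The 4 low values were Mcm7 in WT_EE mouse 4 (58.8 CPM against 77.7 to 80.9 CPM), Cenpe in WT_EE mouse 3 (56.8 CPM against 127 to 148 CPM), Cenpf in WT_SE mouse 2 (134 CPM against 172 to 178 CPM) and Ccne1 in WT_SE mouse 3 (3.38 CPM against 7.83 to 8.35 CPM). The Ccne1 values of WT_SE rest on 1 to 3 counts, no more than the floor of 3 counts, so their difference is not read.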

How the results depend on the processing

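No member was called after adjustment under any of the 22 alternatives. At the unadjusted threshold 1 member was called (2.17%, beside 7.65% of all genes). The number was 2 with DESeq2 size factors (all genes 7.77%), library totals (7.64%), scaling to epithelial markers (6.86%) or limma-voom (7.78%), 3 with no filter (7.08%) or with Slc10a2 as a covariate (6.66%), and 4 with upper quartile normalization (7.84%). With each mouse left out it ran from 1 to 4, beside 5.19% to 9.14% of all genes (4 without WT_SE mouse 2 or WT_EE mouse 5, 3 without WT_EE mouse 1, 2 without WT_EE mouse 4). Mki67 was lower in all 22 alternatives and called in 20, all but the library ending as a covariate (log2 fold change -0.32) and the L2 libraries alone. In these fits the number of positive members went from 21 to 32. With each mouse left out that number ran from 12 to 26, and the median of the members from -0.18 to 0.04. Of the other cell cycle genes 11 were called. The number was 7 with the DESeq2 test, which called 3.69% of all genes, and these 7 were all among the 11. It was also 7 with the L2 libraries alone, which called 3.98% of all genes, but only 4 of those were among the 11. With each mouse left out it ran from 8 to 17 (17 without WT_SE mouse 2, where 9.14% of all genes were called). The cause of these shifts was not tested. With the mouse number as a block 3 members were called (Kif20a, Mki67 and Top2a), beside 6.71% of all genes, and log2 fold changes that turned sign were Ccnd1 -0.09 and Rrm1 0.003. Mice with the same number are different animals, their deviations correlated at -0.02 to 0.13, and none of the WT_SE mice correlated best with its own number, so the block is not read as pairing. Of 704 log2 fold changes of the 32 better counted members under these alternatives, 603 kept their direction and their side of the threshold, 19 gained or lost a call in the same direction and 82 turned sign, 80 of them without a call in either fit. The fold changes that turned sign were Ccnd1 -0.006 with DESeq2 size factors, Ccnd1 -0.04, Kif23 -0.032, Plk1 -0.005 and Prc1 -0.024 with upper quartile normalization, Ccnd1 -0.039, Kif23 -0.015 and Prc1 -0.005 with scaling to epithelial markers, Ccnd1 -0.006 with the DESeq2 test, Ccnd1 -0.012, Prc1 -0.016 and Stmn1 0.041 with limma-voom, Ccnb1 0.31, Ccnb2 0.12, Cdc20 0.20, Cenpe 0.33, Mcm6 0.18, Pcna 0.058, Stmn1 0.56 and Tpx2 0.32 with the library ending as a covariate, Ccnb1 0.32, Ccnb2 0.13, Cdc20 0.21, Cenpe 0.34, Mcm6 0.19, Pcna 0.07, Stmn1 0.58 and Tpx2 0.33 with the L2 libraries alone, Ccnd1 -0.067, Cdk1 -0.053, Mcm6 0.034, Prc1 -0.01, Stmn1 0.005 and Ube2c -0.052 with Slc10a2 as a covariate, and Ccnd1 -0.001 with the newer quasi-likelihood form. For members that turned sign with a mouse left out, the log2 fold changes ran from -0.079 to 0.065 for Ccnd1, -0.17 to 0.12 for Cdc20, -0.25 to 0.018 for Pcna, -0.25 to 0.16 for Stmn1, -0.32 to 0.28 for Cdk1, -0.029 to 0.30 for Hmgb2, -0.062 to 0.20 for Kif11, -0.18 to 0.23 for Plk1, -0.15 to 0.12 for Prc1, -0.061 to 0.27 for Ube2c, -0.27 to 0.071 for Cenpe, -0.05 to 0.11 for Kif23, -0.25 to 0.065 for Mcm6, -0.41 to 0.10 for Tpx2, -0.37 to 0.02 for Ccnb2, -0.21 to 0.063 for Dut, -0.20 to 0.08 for Rrm1 and -0.098 to 0.24 for Tyms. At the depth of these libraries, differences in the 14 members with a mean under 10 counts are loosely set.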

Other observations

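The balance between the mitosis and the replication genes differed between mice. The summed CPM of the 19 mitosis genes (kinases, checkpoint, chromosome and spindle) divided by that of the 16 replication and nucleotide genes was 2.03, 1.87, 2.34 and 2.07 in WT_SE mice 1, 2, 3 and 5, and 2.50, 2.29, 1.46, 2.28 and 1.97 in WT_EE mice 1 to 5. WT_EE mouse 3 had the lowest ratio of the 9 mice. Its replication and nucleotide genes, at 697 CPM, lay within the range of the other mice, while its mitosis genes, at 1019 CPM, were the lowest of all. WT_EE mouse 1 had the highest ratio, with 617 CPM for replication and 1546 CPM for mitosis. The values were noticed in the data and carry no test.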
